A study of Rattus norvegicus with 9 samples.

Results

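The genes described here encode the proteins of the cytosolic ribosome. They were taken by symbol alone, as every row named Rpl or Rps with a number and at most a closing a or x, together with Rplp0, Rplp1, Rplp2 and Rpsa. The rule found 73 of the 23768 genes in the table, 29 of the small (40S) subunit and 44 of the large (60S) subunit, and all 73 passed the filter on low counts. Total RNA of tibia from male Sprague Dawley rats had been sequenced in 9 libraries, 3 per group. Model has libraries numbered 1, 2 and 5, while those of GelMA and of PMLGH are numbered 2, 3 and 4. GelMA commonly stands for gelatin methacryloyl, from which hydrogels are made, and the title of the study speaks of bone healing in diabetes and of a peptide that imitates the enzyme lysyl oxidase. PMLGH is not spelled out in the labels, and neither is how the Model animals were prepared, their age, the sampling time or whether each library came from its own animal. The p-values therefore measure the spread between these libraries, which may be technical.

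Each cytosolic ribosome holds 1 copy of nearly all of these proteins, built around the ribosomal RNAs. Their mRNAs are among the most abundant of most cells, and most of them start with a C followed by a stretch of pyrimidines, the 5' terminal oligopyrimidine (TOP) motif. Through this motif, mTOR complex 1 and the RNA-binding protein Larp1 control how much of the mRNA is translated and how long it is kept. In bone marrow, ribosomal proteins are best known from Diamond-Blackfan anaemia, in which the loss of 1 copy of such a gene depletes red cell precursors.

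In both other groups this mRNA took a smaller share of the counts than in Model. The 73 genes together took 5.04%, 4.49% and 4.95% of all counts in Model 1, 2 and 5, a mean of 4.83% ± 0.30 (SD, n = 3). They took 4.12%, 3.89% and 3.98% in GelMA 2, 3 and 4, a mean of 4.00% ± 0.12 (SD, n = 3), and 4.43%, 4.08% and 4.09% in PMLGH 2, 3 and 4, a mean of 4.20% ± 0.20 (SD, n = 3). Every Model library stood above all GelMA and PMLGH libraries, but the gap between Model 2 and PMLGH 2 was small. Counting error is far smaller, since the 95% Wilson interval of a share was at most 0.0146 percentage points wide. A share of counts also falls when other RNA rises. In bulk tissue, such a rise, fewer cells of a type and less RNA per cell cannot be told apart.

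**Figure D1:**
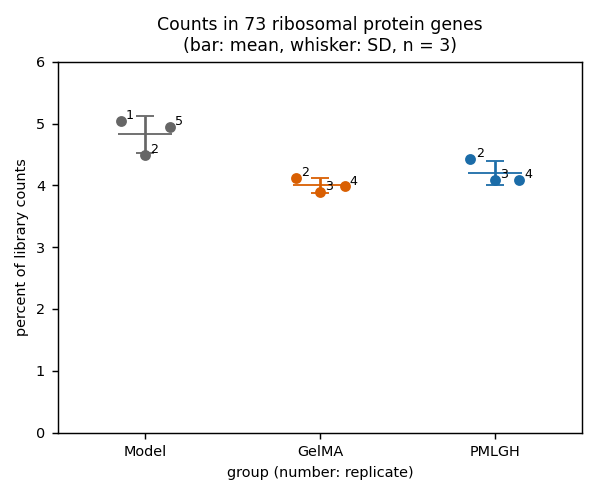
Percent of each library's counts in the 73 ribosomal protein genes (y axis) for the Model, GelMA and PMLGH libraries (x axis, points labelled with replicate numbers, bar for the mean, whisker for the SD, n = 3). The lowest Model library, replicate 2, lies at 4.49% and the highest PMLGH library, also numbered 2, at 4.43%.

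Libraries were of like depth, from 34571478 to 37166383 counts. The Model libraries did not form a tight group: over genes with a mean of at least 50 counts, the mean chi-square per gene was 33.0 between Model 1 and 2 and 27.7 between Model 2 and 5, against 15.7 between Model 1 and 5. Model 2 was also the lowest Model library for 68 of the 73 genes. Most counts of genes that fell or rose are given below with the range over fits that leave out 1 library each. The labels name no batch, so a batch that coincides with a group cannot be told apart from it.

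The start of transcription was looked at first, because the TOP motif begins there. RefSeq's promoter table for the GRCr8 build held 1 window for 56 of the 73 genes. From each, 30 bases were read, 10 before the position taken as the start and 20 from it on. That position was the gene's start in the reference for 57.8% of the 33469 windows of all genes. In the rest, the 30 bases need not lie at that gene start. An unbroken run of at least 8 pyrimidines (C or T, on the strand of the gene) lay in 35 of the 56 windows, or 62.5%, against 10.8% of the 33469 windows of all genes. On the other strand, where such a run reads as purines, 1 of the 56 windows had one (1.79%), against 13.1% of all windows. The median longest run was 9 bases for the ribosomal protein genes and 4 for all genes.

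The windows below show both kinds, with the longest pyrimidine run of at least 8 bases in capitals. Of those with a run, some are from genes that fell strongly in both groups compared below (Rpl31, Rps24 and Rpl39) or in PMLGH (Rps10). The others are the most extreme run (Rps23) and genes with small changes (Rplp0 and Rpl10). Rpl31 was read at chr9:49143101-49143130 on the plus strand, Rps24 at chr16:96507-96536 on the plus strand, Rps10 at chr20:5700725-5700754 on the minus strand and Rpl39 at chrX:121195877-121195906 on the minus strand. Rps23 was read at chr2:23814507-23814536 on the plus strand, Rplp0 at chr12:46718371-46718400 on the minus strand and Rpl10 at chrX:157205840-157205869 on the plus strand. The windows of Rpl41 (chr7:1563478-1563507, minus strand), Rpl36a (chrX:102059439-102059468, plus strand), Rpl26 (chr10:54109682-54109711, plus strand) and Rps6 (chr5:106420521-106420550, minus strand) held no such run.
Rpl31: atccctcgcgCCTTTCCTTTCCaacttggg
Rps24: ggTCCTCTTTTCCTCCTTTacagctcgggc
Rps10: gcacgCCCCTTCCTTTCCagcctccgcctc
Rpl39: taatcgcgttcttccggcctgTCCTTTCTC
Rps23: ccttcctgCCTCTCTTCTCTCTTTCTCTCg
Rplp0: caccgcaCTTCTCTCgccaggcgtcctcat
Rpl10: gtgggagcgTCTCTTTTCCTCTggcgcggt
Rpl41: ctcggaagtgacgacaccaagcacgccatt
Rpl36a: tataaacttccgttgctgctctagcctctc
Rpl26: gtcaacttacagaaccggaagtcgcatgta
Rps6: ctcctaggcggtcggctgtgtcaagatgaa

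Short words within these 30 bases were counted too, each on both strands. CTTTC was in 23 of the 56 windows (41.1%, against 3.39% of all windows) and its reverse complement GAAAG in 1. CTCTTT was in 13 (23.2%, against 1.09%) and AAAGAG in 0. CTTCC, which can share an end base with CTTTC, was in 16 (28.6%, against 5.70%) and GGAAG in 2 (3.57%, against 6.86%). Within 50 bases on either side of the start, TTCCGG or its reverse complement CCGGAA, the core that ETS family factors bind and that can share TTCC with CTTCC, was in 16 of the 56 (28.6%, against 7.58%). A match is a description of these letters and not a site, and a window without a run says nothing of where the cell starts the transcript.

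Levels of different genes are set side by side as FPKM, which is scaled to gene length. Rpl41, the shortest protein of the ribosome, had the highest mean FPKM over the 9 libraries (2364), then Rps29 of the head of the small subunit (1924) and Rplp0, the base of the stalk (1641). These 3 genes lead an otherwise flat order: the median was 777, and leaving out the row named Rpl37 the highest gene was only 9.06 times the lowest, Rpl21 (261). Of the 73, 72 were among the 500 genes with the highest FPKM. The median FPKM was 977 for the small subunit and 691 for the large subunit.

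The balance of the subunits was nearly constant. The summed FPKM of the small subunit was between 0.802 and 0.814 of that of the large subunit in each of the 9 libraries, with the lowest ratio in GelMA 3 and the highest in PMLGH 3. In Model 1, 2 and 5 the ratio was 0.812, 0.806 and 0.804, so the groups overlapped.

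The row named Rpl37 does not behave like the rest and may not be the ribosomal protein gene. Its mean was 5.34 CPM (counts scaled to library size, not to gene length) and 14.9 FPKM, where the next lowest FPKM was 261, and its length of 359 bases equals the span of the reference gene Rpl37l1, of which Rpl37 is an older symbol, while the reference gene Rpl37 spans 2079 bases. The table has no row with the symbols Rps19, Rps9, Rpl35a or Rpl37a. Rows named Rps19l2, Rps9l1 and Rpl35al1 had means of 492, 498 and 146 CPM and are longer (732, 756 and 577 bases) than the reference genes of those names (396, 637 and 535 bases), so which gene they count is uncertain. They are no members, were looked at after their values were seen, and changed by −0.36 ± 0.07, −0.20 ± 0.06 and −0.40 ± 0.08 (log2, GelMA against Model, adjusted p = 0.0026, 0.016 and 0.0018 in edgeR's quasi-likelihood test, with an approximate SE after each log2 change here and below). In PMLGH against Model none of these 3 rows passed (−0.19, −0.09 and −0.13, adjusted p = 0.063, 0.27 and 0.23). A further row named as a copy, Rps10l1, fell in GelMA (−0.38 ± 0.10, adjusted p = 0.0097) and was higher in PMLGH than in GelMA (0.40 ± 0.10, adjusted p = 0.028). The reference also lists 1030 genes named as copies of the 73, and no source used here says how reads that match several copies were counted, so every level may hold reads of a copy or miss reads lost to one.

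**Figure D2:**
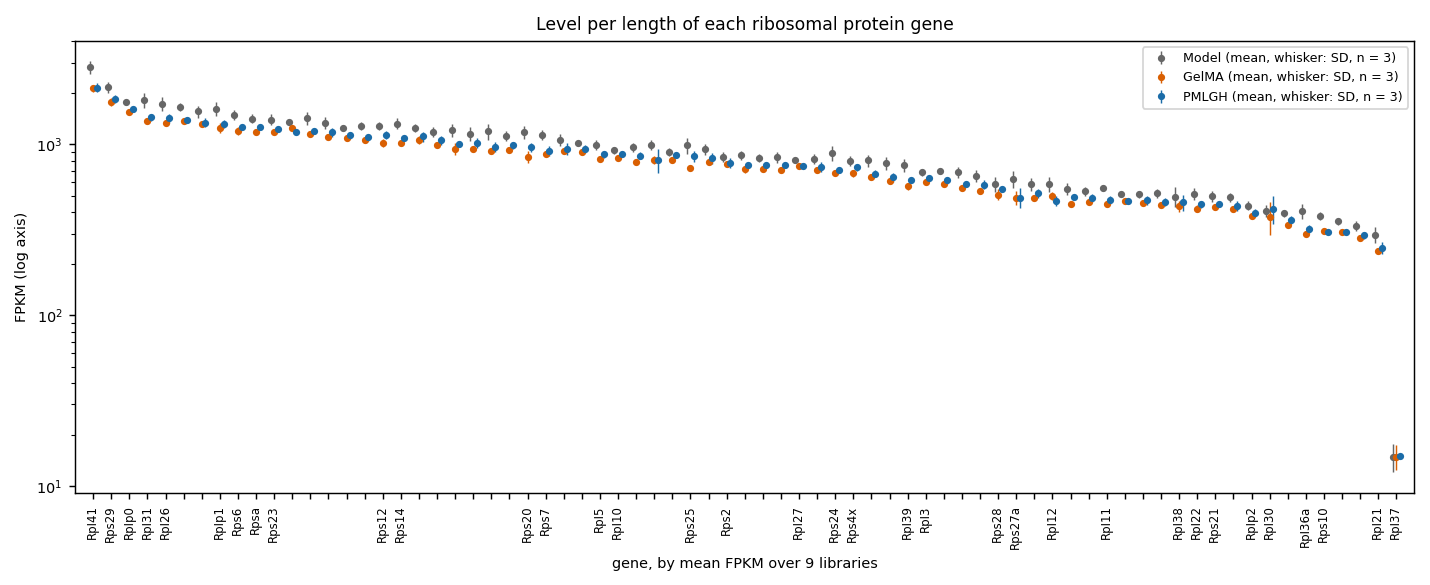
Mean FPKM (y axis, log scale, whisker for the SD, n = 3) of each of the 73 genes in Model, GelMA and PMLGH, ordered along the x axis by the mean over 9 libraries, with names for genes described in the text. The order runs from Rpl41 at a mean of 2364 to Rpl21 at 261, and the row named Rpl37 stands apart at 14.9.

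GelMA against Model was the wider change. Of the 73 genes, 68 fell (adjusted p under 0.05 in edgeR's quasi-likelihood test over 16816 genes) and 5 did not pass, Rpl27, Rpl38, Rps2, Rpl30 and Rpl37. Among all genes tested, 9.88% fell and 12.7% rose in that comparison. None of the 73 rose, also not by DESeq2 or at an unadjusted p under 0.05, where 71 were lower and 0 higher. At that unadjusted p, 2547 of the 16816 genes were lower and 3223 higher. The median log2 fold change was −0.30, from −0.51 (Rps20) to −0.04 (Rpl37), beside 0.03 over all genes. In 69 of the 73 each GelMA library was below each Model library, which held in that direction for 16.8% of all genes. Leaving out any 1 of the 9 libraries gave 55 to 70 genes that fell, and the median was −0.39 without Model 2.

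PMLGH against Model uses the same Model libraries and is not independent of the comparison above. Of the 73 genes, 43 fell and 30 did not pass, where 11.9% of all genes fell and 15.7% rose. Under upper-quartile scaling the order over all genes turned, with 2495 that fell and 2370 that rose. None of the 73 rose, also not by DESeq2 or at an unadjusted p under 0.05, where 64 were lower and 0 higher. Of the 16816 genes tested, 2891 were lower and 3505 higher at that unadjusted p. The median log2 fold change was −0.20, from −0.41 (Rpl41) to 0.03 (Rpl30), beside 0.02 over all genes. In 46 genes each PMLGH library was below each Model library, against 18.4% of all genes.

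The PMLGH count rests on single libraries to a large degree. It was 21 without Model 1, 69 without Model 2 and 28 without Model 5, 18 without PMLGH 3 and 25 without PMLGH 4. All 43 genes that fell kept their direction in these 5 fits. PMLGH 2 was the highest PMLGH library for 67 of the 73 genes and exceeded Model 2 in 24 of them.

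PMLGH and GelMA were not shown to differ. No ribosomal protein gene passed in either direction in edgeR, where 1.80% of all genes rose and 1.64% fell, and 1 rose in DESeq2. The median log2 difference, PMLGH minus GelMA, was 0.10 (range −0.07 to 0.26) beside 0.00 over all genes, and it was positive for 71 of 73. At an unadjusted p under 0.05, 6 of the 73 genes were higher and 0 lower in PMLGH. Of all 16816 genes tested, 1410 were higher and 1215 lower, so the share of the 73 that were higher was near that of all genes. Each PMLGH library was above each GelMA library in 23 of the 73, against 12.3% of all genes. The PMLGH mean lay between those of Model and GelMA for 69 genes, below GelMA for 2 and above Model for 2. The 43 genes that fell in PMLGH all fell in GelMA as well, and 25 fell in GelMA only, which by itself does not show that the groups differ in them.

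One gene stood nearest to a call between PMLGH and GelMA. Rps25, a protein of the small subunit's head near the tRNA exit site, was at 340, 325 and 329 CPM in GelMA 2, 3 and 4 and at 426, 395 and 372 CPM in PMLGH 2, 3 and 4. The groups did not overlap. The difference was 0.26 ± 0.08 (log2, approximate SE, adjusted p = 0.085 in edgeR), and with DESeq2 the adjusted p was 0.032.

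**Figure D3:**
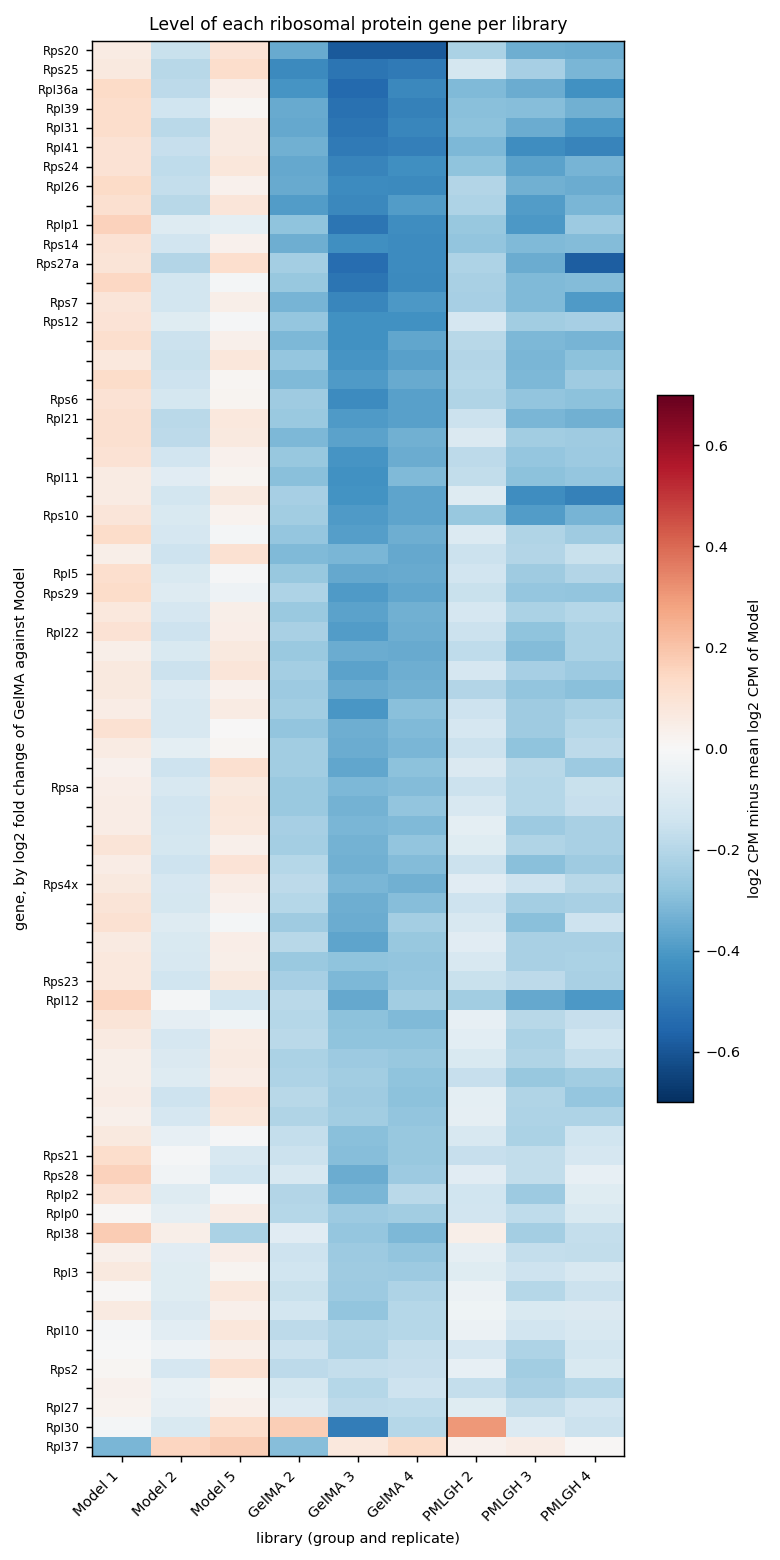
Level of each gene (rows, ordered by the log2 fold change of GelMA against Model) in each library (columns, vertical lines between groups), as log2 CPM minus the gene's mean log2 CPM in Model, with names for genes described in the text. GelMA columns are lower than Model in nearly every row, and Rpl30 and the row named Rpl37 do not follow the others. Model 2 is the lowest Model column in most rows. Its median over the genes is −0.12, on the side of GelMA and PMLGH, against 0.07 in Model 1 and 0.04 in Model 5.

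In the small subunit 28 of 29 genes fell in GelMA (median log2 −0.33) and 19 of 29 in PMLGH (median −0.20), with 23 to 29 and 8 to 28 when 1 library was left out. Rps20, in the head of the subunit, had the largest fall in GelMA. It was at 622, 536 and 638 CPM in Model 1, 2 and 5, at 468, 397 and 397 in GelMA 2, 3 and 4, and at 512, 471 and 469 in PMLGH 2, 3 and 4. All Model libraries were above all others. Rps20 fell by 29.8% in GelMA (log2 −0.51 ± 0.08, adjusted p = 0.00033) and by 0.31 ± 0.08 on the log2 scale in PMLGH (adjusted p = 0.0094). Rps25 was at 487, 405 and 506 CPM in Model, so that PMLGH 2 at 426 exceeded Model 2. Its changes against Model were −0.49 ± 0.08 in GelMA (adjusted p = 0.00038) and −0.23 ± 0.08 in PMLGH (adjusted p = 0.039), and the latter passed in 11 of 17 other fits.

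Rps6 is the substrate of the S6 kinases downstream of mTOR. It had 1294, 1109 and 1223 CPM in Model 1, 2 and 5, 1016, 890 and 926 in GelMA 2, 3 and 4, and 1044, 994 and 990 in PMLGH 2, 3 and 4, without overlap with Model. Rps6 changed by −0.36 ± 0.07 in GelMA (adjusted p = 0.0018) and by −0.26 ± 0.07 in PMLGH (adjusted p = 0.011), and the latter was 0.053 without Model 1. Rps14, the gene whose loss marks the 5q− syndrome of the marrow, changed by −0.41 ± 0.06 in GelMA (adjusted p = 0.00035) and by −0.30 ± 0.06 in PMLGH (adjusted p = 0.0027).

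Rps27a is made as a fusion with ubiquitin. Its CPM was 734, 598 and 747 in Model 1, 2 and 5, 584, 476 and 509 in GelMA 2, 3 and 4, and 593, 543 and 463 in PMLGH 2, 3 and 4. Each library of the other groups was below each Model library, though GelMA 2 and PMLGH 2 were close to Model 2. The changes of Rps27a were −0.41 ± 0.10 in GelMA (adjusted p = 0.0094) and −0.38 ± 0.10 in PMLGH (adjusted p = 0.011), and the latter was 0.064 without PMLGH 4.

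Rps10, which is ubiquitinated when ribosomes collide, had 425, 372 and 409 CPM in Model 1, 2 and 5, 339, 305 and 312 in GelMA 2, 3 and 4, and 334, 307 and 320 in PMLGH 2, 3 and 4. Here the groups against Model differed by nearly the same amount, −0.34 ± 0.06 in GelMA (adjusted p = 0.0018) and −0.33 ± 0.06 in PMLGH (adjusted p = 0.0016). Rps29 changed by −0.33 ± 0.07 in GelMA (adjusted p = 0.0037) and by −0.24 ± 0.07 in PMLGH (adjusted p = 0.021). The PMLGH call of Rps29 was lost without Model 1, PMLGH 3 or PMLGH 4, with an adjusted p of up to 0.11.

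Rpsa, also known as the laminin receptor precursor, and Rps4x, the X-linked copy of S4, changed less. Rpsa was at 1526, 1369 and 1551 CPM in Model 1, 2 and 5, at 1236, 1189 and 1200 in GelMA and at 1335, 1288 and 1326 in PMLGH. It fell in GelMA (−0.29 ± 0.06, adjusted p = 0.0025), and in PMLGH its −0.17 ± 0.06 passed narrowly (adjusted p = 0.045) and was lost in 10 of 17 other fits. Rps4x fell in GelMA (−0.28 ± 0.07, adjusted p = 0.0067) and did not pass in PMLGH (−0.14 ± 0.07, adjusted p = 0.13).

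Rps21 and Rps28 encode short proteins of the small subunit. Rps21 was at 188, 172 and 160 CPM in Model 1, 2 and 5, at 156, 140 and 144 in GelMA and at 155, 153 and 159 in PMLGH. It changed by −0.24 ± 0.06 in GelMA (adjusted p = 0.015, up to 0.084 with a library left out) and by −0.15 ± 0.06 in PMLGH (adjusted p = 0.091). Rps28 passed in GelMA although Model 5 (182 CPM) was below GelMA 2 (185 CPM), with −0.24 ± 0.08 and an adjusted p of 0.038 that rose to 0.19 with a library left out. In PMLGH it was at −0.11 ± 0.08 (adjusted p = 0.33).

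Of the large subunit 40 of 44 genes fell in GelMA (median log2 −0.30) and 24 of 44 in PMLGH (median −0.19), with 32 to 41 and 10 to 41 when 1 library was left out. Rpl41 had the largest fall of the 73 in PMLGH. Its CPM was 1359, 1133 and 1321 in Model 1, 2 and 5, 1003, 900 and 909 in GelMA 2, 3 and 4, and 1019, 938 and 920 in PMLGH 2, 3 and 4. The lowest Model library was above all 6 others. Rpl41 fell by 26.2% in GelMA (log2 −0.44 ± 0.07, adjusted p = 0.00069) and by 24.5% in PMLGH (log2 −0.41 ± 0.07, adjusted p = 0.00094).

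Rpl39, another very short protein that lines the exit tunnel, had the smallest adjusted p of the 73 in GelMA. It was at 339, 283 and 315 CPM in Model 1, 2 and 5, at 244, 217 and 224 in GelMA 2, 3 and 4, and at 254, 254 and 247 in PMLGH 2, 3 and 4. Its changes were −0.45 ± 0.07 in GelMA (adjusted p = 0.00028) and −0.31 ± 0.07 in PMLGH (adjusted p = 0.0032). Rpl31, which sits at the rim of the tunnel exit, was at 877, 707 and 840 CPM in Model 1, 2 and 5, at 628, 566 and 587 in GelMA, and at 660, 632 and 608 in PMLGH. It changed by −0.45 ± 0.08 in GelMA (adjusted p = 0.00067) and by −0.35 ± 0.08 in PMLGH (adjusted p = 0.0029). For neither gene did the groups overlap with Model.

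Rpl36a, which lies at the tRNA exit site, was at 301, 241 and 283 CPM in Model 1, 2 and 5, at 206, 188 and 200 in GelMA, and at 221, 215 and 204 in PMLGH. It fell by 28.0% in GelMA (log2 −0.47 ± 0.07, adjusted p = 0.00034) and by 22.3% in PMLGH (log2 −0.36 ± 0.07, adjusted p = 0.0019). Rpl12, at the base of the stalk, had a PMLGH mean below its GelMA mean. Its CPM was 755, 674 and 617 in Model 1, 2 and 5, 596, 529 and 575 in GelMA and 575, 530 and 514 in PMLGH. Rpl12 changed by −0.27 ± 0.08 in GelMA (adjusted p = 0.019) and by −0.34 ± 0.08 in PMLGH (adjusted p = 0.0038), and the groups differed by −0.07 ± 0.08 (adjusted p = 0.73).

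Rpl5 and Rpl11 form a particle with the 5S ribosomal RNA and, when free, bind the p53 inhibitor Mdm2. Rpl5 was at 1180, 1010 and 1082 CPM in Model 1, 2 and 5, at 906, 851 and 853 in GelMA, and at 994, 916 and 944 in PMLGH. It changed by −0.33 ± 0.07 in GelMA (adjusted p = 0.0022) and by −0.20 ± 0.07 in PMLGH (adjusted p = 0.034, up to 0.16 in other fits). Rpl11 was at 622, 564 and 605 CPM in Model 1, 2 and 5, at 488, 445 and 481 in GelMA, and at 529, 488 and 495 in PMLGH. It changed by −0.34 ± 0.06 in GelMA (adjusted p = 0.001) and by −0.24 ± 0.06 in PMLGH (adjusted p = 0.0078), and neither call was lost in another fit.

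Rpl10, which joins the large subunit late in its assembly, changed less than most. It was at 712, 680 and 756 CPM in Model 1, 2 and 5, at 631, 619 and 624 in GelMA, and at 696, 652 and 661 in PMLGH. Its −0.20 ± 0.06 passed in GelMA (adjusted p = 0.021, up to 0.094 with a library left out), and its −0.10 ± 0.06 in PMLGH did not (adjusted p = 0.24). Rpl22, known from the development of lymphocytes, changed by −0.32 ± 0.07 in GelMA (adjusted p = 0.0037) and by −0.22 ± 0.07 in PMLGH (adjusted p = 0.029, up to 0.13 with a library left out).

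The stalk recruits the elongation factors to the ribosome. Rplp0, its base, was at 1961, 1868 and 2025 CPM in Model 1, 2 and 5, at 1698, 1634 and 1647 in GelMA 2, 3 and 4, and at 1780, 1726 and 1814 in PMLGH 2, 3 and 4. No group overlapped with Model. Rplp0 fell in GelMA (−0.23 ± 0.06, adjusted p = 0.0074) and did not pass in PMLGH (−0.14 ± 0.06, adjusted p = 0.082). Its partners Rplp1 and Rplp2 also fell in GelMA, by 24.8% and by 15.2% (adjusted p = 0.0016 and 0.017). In PMLGH Rplp1 fell (−0.31 ± 0.08, adjusted p = 0.0082, and 0.051 without PMLGH 3), while Rplp2 was at −0.16 ± 0.07 (adjusted p = 0.083).

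Rpl30 was the least steady of the well-measured genes in GelMA and in PMLGH. It was at 189, 177 and 208 CPM in Model 1, 2 and 5, at 215, 137 and 166 in GelMA 2, 3 and 4, and at 235, 179 and 172 in PMLGH 2, 3 and 4. Its coefficient of variation was the highest of the 73 in GelMA (23.0%) and in PMLGH (17.9%), where the medians of the 73 were 4.24% and 4.44%. The median in Model was higher, 7.72%, and the highest value there was that of the row named Rpl37 (18.2%), not of Rpl30.

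**Figure D4:**
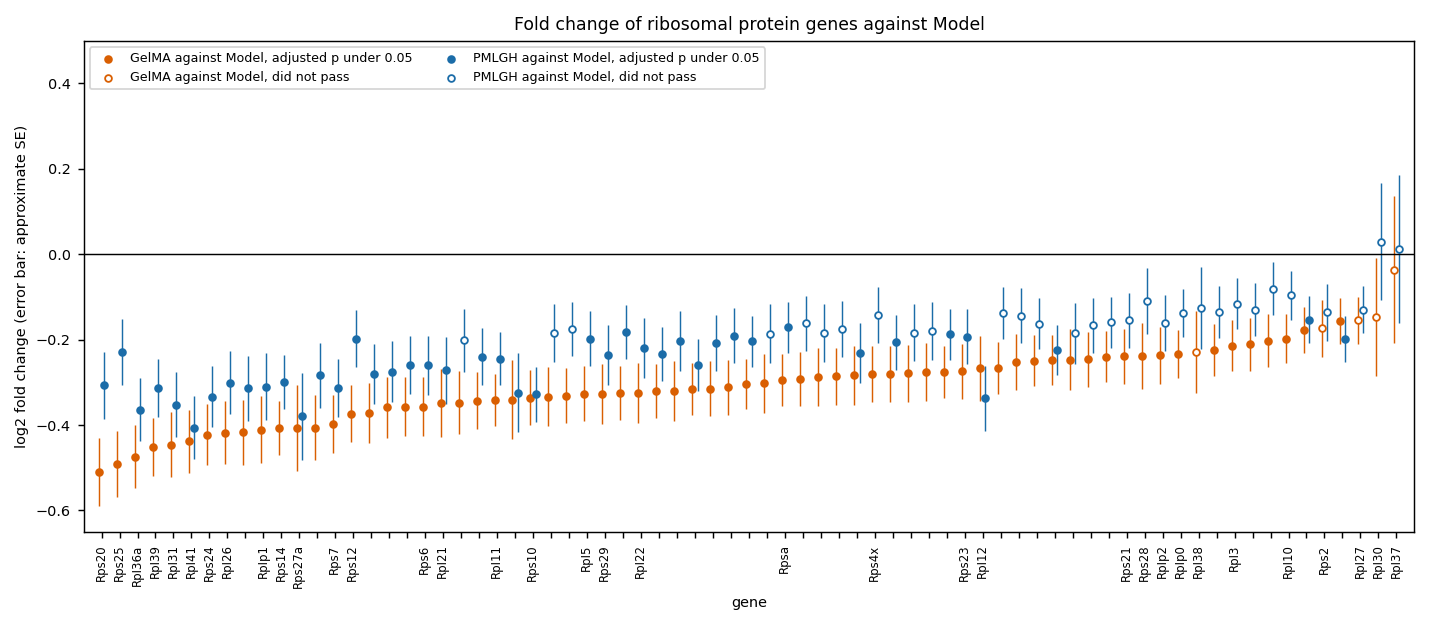
Log2 fold change against Model (y axis) of each gene in GelMA (orange) and PMLGH (blue), with the approximate SE as the error bar and filled points for adjusted p under 0.05. Genes are ordered by GelMA and named where the text describes them. In GelMA 68 of 73 points are filled, while 43 are filled in PMLGH, and the comparisons share their Model libraries.

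Features that the genes share were set beside their changes. The 35 genes with a pyrimidine run had a median log2 fold change of −0.32 in GelMA and −0.20 in PMLGH, and the 21 without one −0.30 and −0.19. Among the windows above, Rpl31 had a run and fell strongly, Rpl10 had one and changed little, and Rpl41 and Rpl36a had none and fell strongly. A gene without a run in its window may still have the TOP motif. This split therefore cannot set genes with the motif against genes without it. Across the 73 genes the Spearman correlation of the GelMA change was 0.11 with gene length and −0.28 with mean FPKM (PMLGH 0.06 and −0.24). These are descriptions across genes measured in the same libraries.

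Other short or abundant genes had medians below 0 as well, closer to it. Of 407 genes under 600 bases outside the 73, 48 fell in GelMA (11.8%, median −0.12) and 50 in PMLGH (12.3%, median −0.10). These shares were near those of all genes (9.88% and 11.9%), and 20 rose in GelMA and 27 in PMLGH. With 1 library left out, the falls ran from 28 to 72 and from 18 to 71. Of 1860 with a mean of at least 100 CPM, 509 fell in GelMA (27.4%, median −0.06) and 566 in PMLGH (30.4%, median −0.05). In the same order, 238 and 359 rose (12.8% and 19.3%). The falls ran from 367 to 702 and from 407 to 728 with 1 library left out. Of the 109 both under 1000 bases and at 100 CPM or more, 37 fell in GelMA (33.9%, median −0.10) and 32 in PMLGH (29.4%). Of these 109, 12 rose in GelMA and 14 in PMLGH. The falls ran from 31 to 49 and from 23 to 43 with 1 library left out. Among the ribosomal protein genes the 30 under 600 bases had a median of −0.32 in GelMA and the 43 others −0.29.

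Of the 18 genes listed for Diamond-Blackfan anaemia, 16 are among the 73. In GelMA 15 of them fell, with Rpl27 not passing, and in PMLGH 11 fell, with 12 to 16 and 6 to 15 when 1 library was left out. Rps24, Rps7 and Rpl26 were among those that fell in GelMA, with log2 changes of −0.42, −0.40 and −0.42 (adjusted p = 0.00065, 0.00072 and 0.00094). Rps24 was at 892, 734 and 880 CPM in Model 1, 2 and 5, at 648, 605 and 617 in GelMA, and at 684, 642 and 664 in PMLGH, with no overlap with Model. This share of genes that fell is like that of the 73 as a whole.

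Of 11 ribosomal genes or paralogs with other names, 3 fell and 2 rose in GelMA and 3 fell in PMLGH (3 to 6, 1 to 2 and 2 to 5 with 1 library left out). The counts of this and the following lists stand beside 9.88% of all genes that fell in GelMA and 12.7% that rose. In PMLGH against Model, 11.9% of all genes fell and 15.7% rose. Rack1, a scaffold on the small subunit, was at 1206, 1081 and 1172 CPM in Model 1, 2 and 5, at 958, 901 and 923 in GelMA, and at 996, 954 and 975 in PMLGH. It changed by −0.31 ± 0.06 in GelMA (adjusted p = 0.0014) and by −0.24 ± 0.06 in PMLGH (adjusted p = 0.0062). Fau, which gives Rps30, changed by −0.26 ± 0.07 in GelMA (adjusted p = 0.0094) and by −0.16 ± 0.07 in PMLGH (adjusted p = 0.076). Rpl3l, the paralog of Rpl3 in striated muscle, went the other way in GelMA. It was at 7.84, 14.2 and 7.16 CPM in Model 1, 2 and 5, at 16.6, 18.5 and 20.5 in GelMA and at 9.04, 9.35 and 8.80 in PMLGH, with 0.93 ± 0.19 for GelMA against Model (adjusted p = 0.0029) and −1.03 ± 0.19 for PMLGH against GelMA (adjusted p = 0.0063).

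Genes outside the ribosome that are known for TOP mRNAs, mostly translation factors, had medians below 0 too, closer to it than those of the 73. Of the 17 with a single promoter window, 8 held a pyrimidine run of at least 8 bases. Of 22 tested, 14 fell in GelMA (median −0.18) and 5 in PMLGH (median −0.12), and none rose, also not at an unadjusted p under 0.05 (edgeR). These counts rest on single libraries: with 1 left out they ran from 3 (without Model 1 or GelMA 4) to 19 in GelMA and from 2 (without PMLGH 3) to 17 (without Model 2) in PMLGH. Tpt1, a short and very abundant TOP mRNA, was at 2374, 2038 and 2368 CPM in Model 1, 2 and 5, at 1806, 1598 and 1607 in GelMA and at 1888, 1800 and 1795 in PMLGH. It fell by 0.44 ± 0.07 on the log2 scale in GelMA (adjusted p = 0.00052) and by 0.31 ± 0.07 in PMLGH (adjusted p = 0.005). The elongation factor Eef1a1 did not pass (−0.12 ± 0.06 in both, adjusted p = 0.16 and 0.14, and 0.013 and 0.010 without Model 2). Of the poly(A)-binding proteins, Pabpc1 fell in both, though not when Model 1 or 5 was left out (adjusted p of 0.062 to 0.073), and Pabpc4 fell in both with −0.18 ± 0.06 in GelMA (adjusted p = 0.035) and −0.29 ± 0.06 in PMLGH (adjusted p = 0.0019).

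Genes that build ribosomes, or make their RNA, had medians near that of all genes. Of 71 assembly factors 1 rose and 2 fell in GelMA (median 0.00), and 1 rose and 4 fell in PMLGH (median 0.01), and with 1 library left out 0 to 4 fell in GelMA and 1 to 6 in PMLGH, while 0 to 1 rose in GelMA and 0 in PMLGH. Nucleolin, Ncl, was at −0.03 ± 0.05 in GelMA and 0.01 ± 0.05 in PMLGH (adjusted p = 0.72 and 0.91). Of 16 genes of RNA polymerase I and its regulators, Myc fell in GelMA (−0.39 ± 0.08, adjusted p = 0.0021) and was at −0.18 ± 0.08 in PMLGH (adjusted p = 0.097, and 0.046 without Model 2), and no other passed against Model (edgeR, with 1 gene in GelMA and 2 in PMLGH at an unadjusted p under 0.05). Of 73 mitochondrial ribosomal protein genes 3 fell in GelMA (4.11%, median −0.07) and 9 in PMLGH (12.3%, median −0.10). These shares stand beside 9.88% and 11.9% of all genes. With 1 library left out the counts ran from 1 to 12 and from 2 to 12.

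Of 29 initiation factors not known for TOP mRNAs, 1 rose and 4 fell in each comparison with Model. The falls were 13.8% of the list, beside 9.88% of all genes in GelMA and 11.9% in PMLGH. The medians were −0.09 in GelMA and −0.06 in PMLGH. With 1 library left out, 1 to 9 fell in GelMA and 2 to 8 in PMLGH, and 0 to 1 rose in each. Eif4e, which binds the cap, fell in both (−0.21 ± 0.05 and −0.20 ± 0.05, adjusted p = 0.0086 and 0.011, the latter 0.057 without PMLGH 4). Of 26 genes of mTOR and TOP control 5 fell in GelMA and 7 in PMLGH (1 to 10 and 1 to 12 with 1 library left out). Ddit4, an inhibitor of mTOR complex 1, was at 61.0, 50.3 and 57.8 CPM in Model 1, 2 and 5, at 32.4, 24.8 and 28.0 in GelMA, and at 50.1, 42.6 and 41.8 in PMLGH. It changed by −0.99 ± 0.10 in GelMA (adjusted p = 8.5e-06) and by −0.33 ± 0.10 in PMLGH (adjusted p = 0.024, and up to 0.10 with 1 library left out), and PMLGH was higher than GelMA by 0.66 ± 0.10 (adjusted p = 0.0016). Larp1 itself did not pass, at −0.12 ± 0.05 in GelMA and −0.08 ± 0.05 in PMLGH (adjusted p = 0.13 and 0.32, and 0.016 for GelMA without Model 2).

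Targets of p53, which free Rpl5 and Rpl11 can raise, moved both ways. Of 23 tested, 5 rose and 4 fell in GelMA, and 4 rose and 6 fell in PMLGH. With 1 library left out, 1 to 5 rose and 4 to 7 fell in GelMA, and 2 to 4 rose and 3 to 7 fell in PMLGH. Cdkn1a rose by 0.42 ± 0.11 in GelMA (adjusted p = 0.012) and by 0.87 ± 0.11 in PMLGH (adjusted p = 3.5e-05), whereas Btg2 changed by −0.31 ± 0.05 and −0.39 ± 0.05 (adjusted p = 0.00078 and 6.7e-05). Of 20 genes of the integrated stress response, 2 rose and 7 fell in GelMA, and 4 rose and 6 fell in PMLGH, and with 1 library left out 5 to 9 and 4 to 7 fell and 1 to 2 and 2 to 4 rose. Among these were Asns, the asparagine synthetase (−0.70 ± 0.09 and −0.65 ± 0.09, adjusted p = 8.7e-05 and 0.00012), and Eif2ak1, the haem-regulated kinase of red cell precursors (−0.45 ± 0.06 and −0.42 ± 0.06, adjusted p = 0.00017 and 0.00023).

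**Figure D5:**
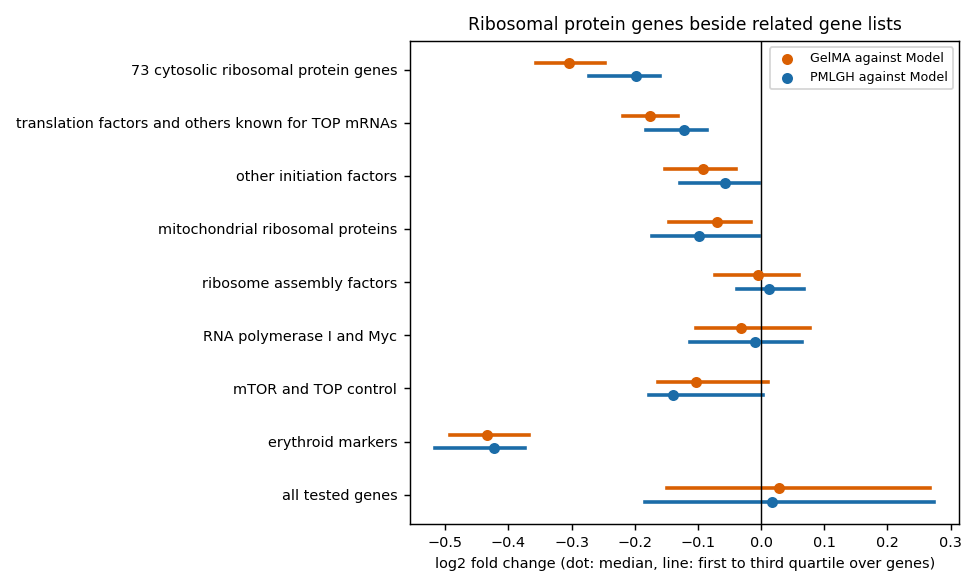
Median log2 fold change against Model (x axis, dot) and interquartile range over genes (line) for the 73 ribosomal protein genes, related gene lists, erythroid markers and all tested genes, in GelMA (orange) and PMLGH (blue). The ribosomal protein genes lie at −0.30 and −0.20, between the erythroid markers (−0.43 and −0.42) and the translation factors and others known for TOP mRNAs (−0.18 and −0.12).

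Markers of several cell types changed between the same groups. Of 31 erythroid markers 29 fell in GelMA (median −0.43) and 31 in PMLGH (median −0.42), with 27 to 31 in both when 1 library was left out. Their summed level was 111796 to 125419 CPM in Model, 85045 to 96021 in GelMA and 83545 to 97974 in PMLGH. Klf1, a defining transcription factor of red cell precursors, fell in both (−0.58 ± 0.08 and −0.59 ± 0.08, adjusted p = 0.00012 and 7.0e-05). Per library the median of the erythroid markers, relative to the Model mean, was 0.12, −0.18 and 0.07 in Model 1, 2 and 5, and that of the 73 ribosomal protein genes 0.07, −0.12 and 0.04. In GelMA 2, 3 and 4 the erythroid medians were −0.34, −0.48 and −0.44 and those of the 73 genes −0.24, −0.35 and −0.31. In PMLGH 2, 3 and 4 they were −0.42, −0.51 and −0.39 against −0.14, −0.24 and −0.23. Between PMLGH and GelMA the erythroid markers differed by a median of −0.03, where the 73 genes differed by 0.10.

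With the libraries scaled without the erythroid genes, 69 genes fell in GelMA and 55 in PMLGH. The 73 genes then took 5.47%, 4.40% and 4.61% of the remaining counts in Model, GelMA and PMLGH. Erythroid genes held more of the Model counts, so taking them out of the totals raises the Model share most, whatever the 73 genes do. That step removes the weight of the erythroid transcripts from the totals and not the other RNA of the same cells. The part of erythroid cells in the result was not tested.

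Adipocyte markers were also lower. Of 11 tested, 5 fell in GelMA (median −0.27) and 3 in PMLGH (median −0.15), and none rose (falls of 4 to 6 and 1 to 5 with 1 library left out). Their summed level was 1286 to 1586 CPM in Model, 1002 to 1133 in GelMA and 1158 to 1277 in PMLGH. Of 14 markers of blood progenitors, 3 rose and 4 fell in GelMA and 4 rose and 6 fell in PMLGH (rises of 1 to 3 and 2 to 4, and falls of 4 to 5 and 3 to 6, with 1 library left out). Their summed level was 790.5 to 796 CPM in Model, 723 to 742 in GelMA and 684 to 730.4 in PMLGH. The part of these cells in the result was not tested.

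Muscle, bone and connective tissue markers moved the other way. All 31 muscle markers rose in GelMA (median 2.00) and 24 in PMLGH (median 0.62), with summed levels of 1219 to 1676 CPM in Model, 4917 to 6006 in GelMA and 1952 to 2492 in PMLGH. Of 18 osteoblast markers 18 rose in GelMA and 14 in PMLGH (16398 to 20736 CPM in Model, 33514 to 37157 in GelMA, 35584 to 41170 in PMLGH). Of 16 fibroblast markers 15 rose in each (4394 to 4848 CPM in Model, 7218 to 8001 in GelMA, 8835 to 10304 in PMLGH). With 1 library left out, 31 muscle markers rose in GelMA and 19 to 26 in PMLGH. For osteoblast markers the rises were 16 to 18 and 12 to 15, and for fibroblast markers 15 to 16 in each. The part of these tissues in the result was not tested.

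Among white cells, 9 of 20 markers of B cell precursors rose in GelMA, 3 fell in PMLGH, and 14 were lower in PMLGH than in GelMA. With 1 library left out these counts ran from 1 to 17, 0 to 8 and 5 to 15. Their summed level was 634 to 1010 CPM in Model, 923 to 1141 in GelMA and 609 to 731 in PMLGH, and Model 2 had the highest of the Model libraries by median (0.37 relative to the Model mean). Of 22 neutrophil markers 2 rose in GelMA (9.09%, beside 12.7% of all genes). In PMLGH 6 rose (27.3%, beside 15.7%) and 1 fell. With 1 library left out the rises ran from 1 to 8 and from 3 to 14. The summed level of the neutrophil markers was 14721 to 19568 CPM in Model, 17024 to 18638 in GelMA and 17083 to 21489 in PMLGH. Of 15 macrophage markers 5 rose and 1 fell in GelMA, and 11 rose in PMLGH (rises of 3 to 8 and 9 to 12 with 1 library left out, 8175 to 10286 CPM in Model, 8263 to 9038 in GelMA, 10115 to 10917 in PMLGH). None of the listed markers was at 0 in all libraries, so RNA of each of these cell types may be present in the samples, and their part in the change of the ribosomal protein genes was not tested.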

How the data were processed

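The authors deposited raw counts per gene symbol and FPKM for the same genes. Here each FPKM equals the count over the library total and the gene length, so it adds no second measurement and served only to compare genes. The submitters' processing notes name DESeq2 and R 3.2.0, with no role. Which aligner, counter, build and strand setting were used is not given in the sources used here.

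Groups were taken from the sample titles. Counts were tested with edgeR 4.0.16 (R 4.3.3, limma 3.58.1): filterByExpr by group kept 16816 genes, libraries were scaled by TMM, and 9 libraries in 3 groups entered the quasi-likelihood fit (6 residual degrees of freedom, common biological coefficient of variation 10.1%). P-values are two-sided and adjusted by Benjamini-Hochberg over all tested genes within a comparison, and under 0.05 counts as passing. CPM use TMM-adjusted library totals. The SE is the log2 change over the square root of its F statistic. The script was tested on simulated data. Alternatives were other scalings, no filter, DESeq2 1.42.0, a robust fit, only the groups compared, the replicate number as a block, and leaving out each library, which for the related lists was added after seeing the data. Replicates were compared by chi-square, and no library was a copy of another.

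The ribosomal protein genes and all gene lists were chosen with earlier results of these data known. Named were, per comparison, the 5 largest falls and rises and 3 smallest p among passing genes, the 3 highest by FPKM and 3 lowest by CPM, a fixed set (Rps6, Rps14, Rps27a, Rps4x, Rpsa, Rpl5, Rpl11, Rpl10, Rpl22, Rpl39, Rpl41 and the stalk genes, with Rps19 not found by symbol), and up to 4 passing genes of smallest p and 3 of highest CPM per other list. Rpl21, Rpl27, Rpl30, Rpl38, Rps2 and Rps12 were named after their values were seen, and so were the promoter windows, from RefSeq (GRCr8). Some genes that this rule named are not reported here.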

Additional observations from a re-analysis of the deposited data

How the results depend on the processing

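Under the alternatives run, the medians of the 73 genes kept their sign, and no named gene that passed changed direction. Of the 43 genes that fell in PMLGH, 16 did so in all 17 other fits, and of the 68 in GelMA, 54. Leaving out 1 library in turn gave 18 to 69 genes that fell in PMLGH (main 43) and a median log2 change of −0.28 to −0.16, and 55 to 70 in GelMA (main 68) with a median of −0.39 to −0.27. Both medians were furthest from 0 without Model 2. For PMLGH against GelMA the number of ribosomal protein genes that rose was 0 in the fit reported, 1 with no filter, 1 with DESeq2, 1 with only the 2 groups compared and 3 with the replicate block, and 0 to 1 with a library left out. The genes were Rps25 in each of these, and Rps20 and Rps12 in the block only. Genes of any kind called there numbered 578, and 909 with DESeq2, 1059 with only the 2 groups and 1038 with the replicate block, and 303 to 1050 with a library left out. The replicate numbers of GelMA and PMLGH share only a number: deviations of same-numbered libraries correlated at 0.0083, 0.044 and −0.021, so the block is not read as a pairing, and not every library correlated best with its own number. Over all genes, the share of calls that were higher moved by under 10 percentage points with each scaling, but under upper-quartile scaling it turned from 56.9% to 48.7% in PMLGH against Model and from 52.4% to 47.4% in PMLGH against GelMA. The latter was also 46.1% without GelMA 2 and 47.2% without PMLGH 3. By depth, 72 of the 73 genes had over 150 CPM, and the effect of copies of these genes was not measured.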
